A study of Mus musculus with 8 samples.

Results

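Oligodendrocyte precursor and early lineage genes were measured in the hippocampus of female mice that had been treated with DHEA or with its vehicle. They were 10 genes, Pdgfra, Cspg4, Vcan, Olig1, Olig2, Sox10, Gpr17, Neu4, Enpp6 and Bcas1, taken by symbol from a table of 29442 genes, and 10 of the 10 symbols were found. Ventral hippocampal RNA of 8 C57BL/6 J females was sequenced after 21 days of subcutaneous injection. Of these, 4 mice (mice 3, 4, 7 and 11) were labelled DHEA (dehydroepiandrosterone, an androgen precursor) and received 30 mg/kg/day. The other 4 mice (mice 5, 9, 10 and 16) were labelled sesame oil. The animals were 6 to 8 weeks old, and no genetic change is named. Mice are numbered as the library titles are, each library is bulk tissue, and the labels name neither batches nor pairs, so that p-values measure the spread between these libraries. The study's methods for the behavioural tests name littermates as controls, without assigning them to libraries. Total counts ran from 35748416 to 38038361 with DHEA and from 31483772 to 35418297 with sesame oil. The direction of every difference rests on the deposited treatment labels. The signs in the study's own list of differentially expressed genes run opposite to those that the deposited labels give. Which of them is right was not settled here, and every sign below would turn if the labels were exchanged.

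Oligodendrocytes, the myelin-forming cells of the brain, arise from precursor cells that persist in the adult hippocampus and divide in response to platelet-derived growth factor. Precursors carry the receptor Pdgfra and the proteoglycan Cspg4, pass through a committed stage marked by Gpr17, and become newly formed oligodendrocytes that express Enpp6 and Bcas1 before they make mature myelin. The transcription factors Olig1, Olig2 and Sox10 stay on through all of these stages. A list of 10 genes of the hippocampal fields was examined beside the tissue label. Their detection describes the libraries and does not check that label, nor can it tell the ventral part from the rest. Each of the 10 was detected in every library, among them Prox1 of the dentate gyrus (128 ± 9.22 CPM, SD, n = 4, with DHEA and 134 ± 15.6 CPM, SD, n = 4, with sesame oil) and Nr2f2, which is enriched in the ventral part (36.1 ± 7.69 CPM and 41.3 ± 6.00 CPM, SD, n = 4 each). CPM are counts scaled to a library total of 1000000 after TMM normalization.

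All 10 members had a higher mean with DHEA than with sesame oil, by 4.96% (Cspg4, a value that rests on mouse 9) to 55.4% (Enpp6). Enpp6, Pdgfra, Bcas1 and Olig1 passed an unadjusted threshold of 0.05 in the quasi-likelihood test of edgeR, each in the direction of DHEA, and Cspg4, Vcan, Olig2, Sox10, Gpr17 and Neu4 did not. Among all 27612 genes tested, 4.82% were higher with DHEA at this threshold and 4.49% lower, 9.31% in all. Of the 12780 genes that average 100 counts or more, as all members do, 8.08% were higher and 7.6% lower, 15.7% in all. After Benjamini-Hochberg adjustment over all genes, 0 members and 0 of the genes tested (0%) had an adjusted p under 0.05 with edgeR, while 2571 genes had an unadjusted p under 0.05. DESeq2, the tool of the study's methods, gave 1 member, Enpp6, an adjusted p under 0.05 (0.0132), where 0.642% of the genes with an adjusted p were higher and 0.57% lower at that threshold, 1.21% in all. None of the members reached the fold change of 2 that the study set together with an unadjusted p under 0.05, thresholds that 1.6% of all genes and 0.0156% of those with 100 counts or more passed. The median log2 fold change of the 10 members was 0.18, beside 0.01 for all genes tested, and 51.2% of all genes and 53.4% of those with 100 counts or more had a log2 fold change above 0. In bulk tissue, a change in the number of cells of a type and a change in RNA per cell cannot be told apart.

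**Figure D1:**
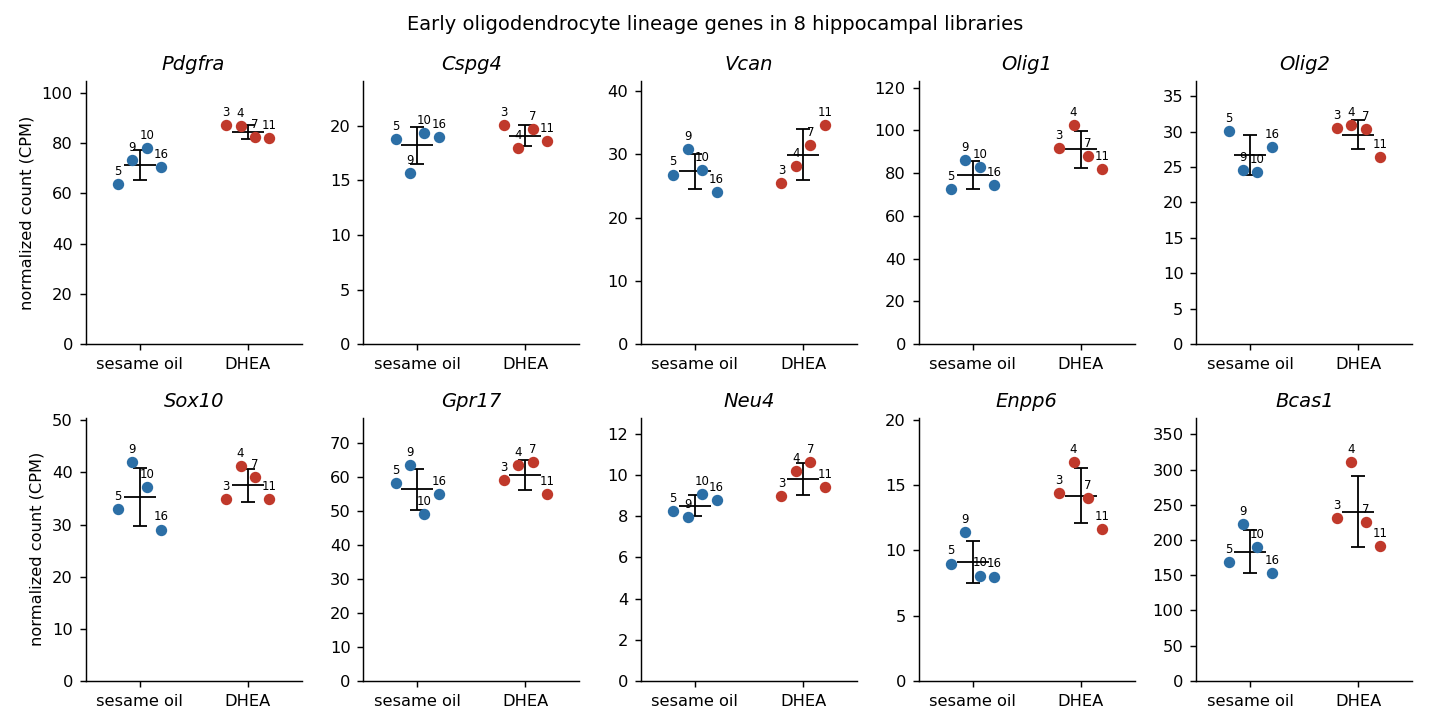
Normalized counts (CPM, vertical axis from 0) of the 10 genes in each library, with the mouse number above each point; blue points are sesame oil, red points DHEA, and black bars the mean ± SD of 4 libraries. Only in the panels of Pdgfra and Enpp6 does every DHEA library lie above every sesame oil library.

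Enpp6 differed most between the groups. It encodes a choline phosphodiesterase at the cell surface and is switched on for a short time as precursors become oligodendrocytes. Its normalized count was 14.4, 16.8, 14.0 and 11.6 CPM in mice 3, 4, 7 and 11 with DHEA and 8.99, 11.4, 8.07 and 7.997 CPM in mice 5, 9, 10 and 16 with sesame oil. The groups did not overlap, but the margin was narrow, since mouse 11, the lowest with DHEA, lay just above mouse 9, the highest with sesame oil. Enpp6 averaged 14.2 ± 2.13 CPM with DHEA and 9.13 ± 1.61 CPM with sesame oil (SD, n = 4 each), with a two-sided exact permutation p = 0.0286, the smallest that 4 against 4 allow. Among all genes tested, 2.42% separated the groups without overlap in this direction and 2.62% in the other, and among those with 100 counts or more 4.23% did in each. The log2 fold change of Enpp6 was 0.64 (standard error 0.14, adjusted p = 0.222 by edgeR), with its p before adjustment 0.000217. With each library left out in turn it stayed between 0.54 and 0.76, with an unadjusted p of at most 0.00146.

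The sequence before the start of Enpp6 is shown because this gene separated the groups and had the largest fold change of the members. It is the 250 bases upstream of the RefSeq start (GRCm38.p6, chr8:46986637-46986886, plus strand), printed 5′ to 3′. These letters were searched on both strands, AGAACA (1 arm of the androgen response element), CANNTG (the E-box bound by factors such as Olig2) and ACAATG (a form of the SOX motif). They do not overlap one another here, and matches stand in capitals.
Enpp6: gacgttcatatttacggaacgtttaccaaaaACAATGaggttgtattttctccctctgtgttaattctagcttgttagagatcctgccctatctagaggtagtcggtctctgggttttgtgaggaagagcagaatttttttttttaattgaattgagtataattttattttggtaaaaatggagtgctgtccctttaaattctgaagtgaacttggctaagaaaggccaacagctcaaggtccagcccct
The capitals mark 1 ACAATG, which begins 219 bases before the start, and 10.7% of 32851 RefSeq promoter windows of this length hold these letters on either strand. A match of letters is a description and not a binding site.

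Among the precursor genes, Pdgfra was higher with DHEA, while Cspg4 and Vcan did not pass the test. Pdgfra, the receptor for platelet-derived growth factor A that keeps precursors dividing, had 87.3, 86.7, 82.4 and 82.0 CPM in mice 3, 4, 7 and 11 and 63.6, 73.2, 77.9 and 70.4 CPM in mice 5, 9, 10 and 16. The DHEA libraries lay close together, all above every sesame oil library, whose values spread more widely. The means were 84.6 ± 2.79 CPM (SD, n = 4) and 71.3 ± 5.98 CPM (SD, n = 4), with a two-sided exact permutation p = 0.0286. The log2 fold change of Pdgfra was 0.25 (standard error 0.07, adjusted p = 0.275 by edgeR) with an unadjusted p of 0.0021. In 8 of the 8 fits that left out a library, the unadjusted p of Pdgfra stayed under 0.05. The corresponding window of Pdgfra, shown because it is the other gene without overlap, is chr5:75152001-75152250 on the plus strand of GRCm38.p6, with the same 3 searches in capitals.
Pdgfra: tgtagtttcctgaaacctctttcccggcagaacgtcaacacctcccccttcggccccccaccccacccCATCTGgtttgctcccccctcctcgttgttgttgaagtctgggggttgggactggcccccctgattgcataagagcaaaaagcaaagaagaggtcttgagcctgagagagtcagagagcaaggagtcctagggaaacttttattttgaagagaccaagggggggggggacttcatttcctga
The capitals mark 1 CANNTG, which begins 182 bases before the start, and 66.2% of the promoter windows hold one. Windows were found for 6 of the 10 members, and the letters AGAACA, held by 16.1% of all windows, are in 0 of these 6.

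Cspg4, the NG2 proteoglycan on the surface of precursors, had 20.1, 17.9, 19.7 and 18.6 CPM in mice 3, 4, 7 and 11 and 18.8, 15.7, 19.3 and 18.9 CPM in mice 5, 9, 10 and 16. The groups overlapped, with mice 3 and 7 above every sesame oil library and mouse 9 below all others. Cspg4 had a log2 fold change of 0.07 (standard error 0.10, adjusted p = 0.792 by edgeR), which was 0.0046 without mouse 9, 0.02 without mice 4 and 9 and 0.04 without mouse 3. Vcan, the matrix proteoglycan versican, had 25.5, 28.2, 31.5 and 34.7 CPM with DHEA and 26.8, 30.8, 27.6 and 24.0 CPM with sesame oil in the same order of mice. Mouse 11 was highest and the groups overlapped. Vcan had a log2 fold change of 0.13 (standard error 0.10, adjusted p = 0.666). This value depended on single libraries, being 0.06 without mouse 11, 0.07 without mouse 16 and 0.20 without mouse 3, none with an unadjusted p under 0.05. Without mice 3 and 4 it was 0.27 with an unadjusted p of 0.0133 from edgeR, and without mice 4 and 9 it was 0.22 with an unadjusted p of 0.0638. Pericytes also carry Cspg4 and fibroblasts Pdgfra. The summed level of 10 mural cell genes was 381 ± 69.4 CPM with DHEA and 347 ± 25.8 CPM with sesame oil (two-sided exact permutation p = 0.371, n = 4 each), with Rgs5 the most abundant and 1 of 10 higher at an unadjusted p under 0.05. That of 8 fibroblast genes was 381 ± 160 CPM and 345 ± 47.7 CPM (two-sided exact permutation p = 0.714, n = 4 each), with Igf2 the most abundant, 0 of 8 past the threshold, Lum (log2 fold change 0.32, standard error 0.20) and Ogn (0.24, 0.24) nearest to it, and no gene at 3 counts or fewer in all libraries. Their part in the result was not tested.

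Of the transcription factors of the whole lineage, Olig1 passed the unadjusted threshold and Olig2 and Sox10 did not. Olig1, a basic helix-loop-helix factor required for maturation, had 91.9, 103, 88.1 and 81.7 CPM in mice 3, 4, 7 and 11 and 72.8, 86.1, 82.9 and 74.3 CPM in mice 5, 9, 10 and 16. Of the DHEA libraries, 3 lay above every sesame oil library, and mouse 11 lay among the sesame oil values. The mean was 91.1 ± 8.73 CPM against 79.0 ± 6.49 CPM (SD, n = 4 each; two-sided exact permutation p = 0.0857). Olig1 had a log2 fold change of 0.20 (standard error 0.08, adjusted p = 0.412 by edgeR), and its unadjusted p of 0.0165 rose to 0.0809 without mouse 4 (log2 fold change 0.13), 0.065 without mouse 5, 0.064 without mouse 16 and 0.205 without mice 3 and 4 (0.10). Olig2, the neighbouring factor that specifies the lineage, had 30.6, 30.9, 30.3 and 26.4 CPM with DHEA and 30.1, 24.6, 24.3 and 27.8 CPM with sesame oil. Mouse 11 again fell among the sesame oil libraries. Olig2 had a log2 fold change of 0.15 (standard error 0.09, adjusted p = 0.622). Its unadjusted p in edgeR's test passed the threshold in 2 of 8 fits with a library left out, at 0.0397 without mouse 5 (log2 fold change 0.21) and 0.043 without mouse 11 (0.20). Without mice 3 and 4, or mice 4 and 9, the log2 fold change of Olig2 was 0.08. Sox10, which activates myelin genes together with Myrf, had 34.9, 41.2, 39.2 and 34.9 CPM with DHEA and 33.0, 42.1, 37.2 and 29.0 CPM with sesame oil. Its highest library, mouse 9, and its lowest, mouse 16, were both of the sesame oil group. The log2 fold change of Sox10 was 0.09 (standard error 0.10, adjusted p = 0.742). It was -0.0033 without mouse 16, 0.03 without mouse 4, 0.06 without mouse 5 and 0.18 without mouse 9.

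The genes of committed precursors did not pass the test. Gpr17, a receptor that is on in committed precursors and holds back their maturation, had 59.1, 63.5, 64.6 and 55.0 CPM with DHEA and 58.2, 63.6, 49.2 and 55.0 CPM with sesame oil. The groups overlapped over most of their range. Gpr17 had a log2 fold change of 0.10 (standard error 0.08, adjusted p = 0.666 by edgeR), which was 0.04 without mouse 10 and 0.16 without mouse 9. Neu4, a sialidase, had 8.96, 10.2, 10.7 and 9.42 CPM with DHEA and 8.24, 7.94, 9.08 and 8.79 CPM with sesame oil. Here 3 DHEA libraries lay above every sesame oil library, and mouse 3 lay just below mouse 10. Neu4 had a log2 fold change of 0.20 (standard error 0.12, adjusted p = 0.597), and the two-sided exact permutation p was 0.0571.

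Bcas1, the other gene of newly formed oligodendrocytes, had 231, 311, 226 and 192 CPM in mice 3, 4, 7 and 11 and 168, 223, 190 and 153 CPM in mice 5, 9, 10 and 16. It encodes a protein that marks actively myelinating cells. Mouse 4 stood highest, and mouse 9 of the sesame oil group lay above mouse 11. The mean was 240.1 ± 50.6 CPM against 184 ± 30.1 CPM (SD, n = 4 each; two-sided exact permutation p = 0.0571). Bcas1 had a log2 fold change of 0.39 (standard error 0.12, adjusted p = 0.314 by edgeR), with an unadjusted p of 0.00509, which was 0.0799 with robust moderation and 0.0553 by limma-trend on log2(FPKM + 1). It fell to 0.23 without mouse 4 and to 0.18 without mice 3 and 4, with an unadjusted p of 0.132 from edgeR in the latter case. By annotation (GENCODE M21), 6 of the 10 members, Bcas1 and Enpp6 among them, overlap a gene on the opposite strand, such as Lims2 for Gpr17. Whether the counting used strand is not given in the sources used here, so reads of such pairs may not be told apart.

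**Figure D2:**
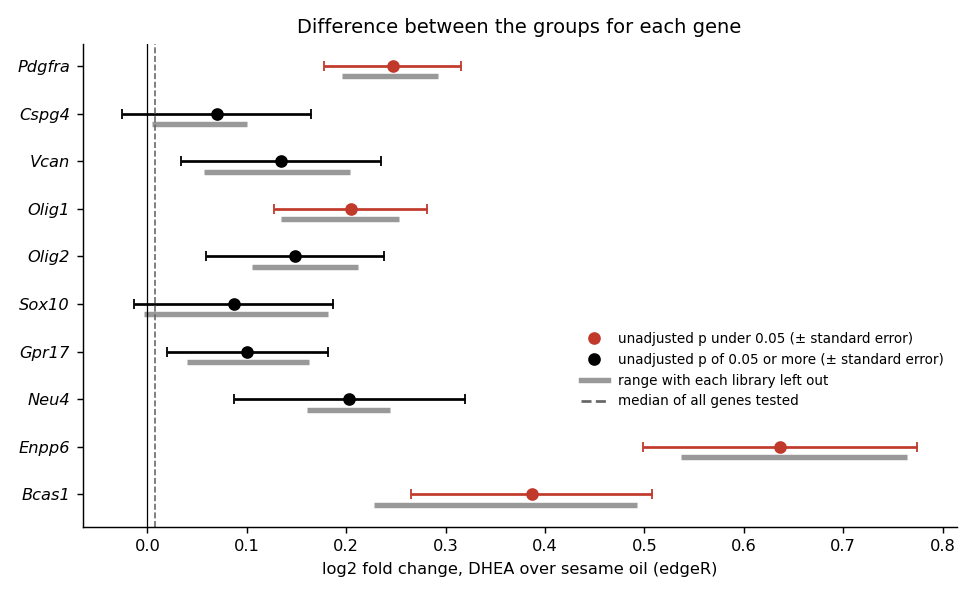
Log2 fold change of each gene (horizontal axis, DHEA over sesame oil, edgeR) with its standard error; red marks an unadjusted p under 0.05, grey bars the range over the 8 fits that each left out a library, and the dashed line the median of all genes tested. Enpp6 at 0.64 lies farthest from that median, and the grey bar of Sox10 reaches 0.

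The difference in Enpp6 was set beside those in the other members by log2 ratios within each library. Since Enpp6 was taken for having the largest fold change of the members, these ratios are given as a description, with no test. Its mean log2 ratio was higher with DHEA by 0.26 against Bcas1, 0.39 against Pdgfra, 0.44 against Olig1 and 0.54 against Sox10. The groups overlapped in the ratio to Pdgfra and in 4 others, and did not overlap in those to Bcas1, Olig1, Sox10 and Gpr17.

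Levels of different genes were compared per length, as deposited FPKM. Bcas1 was the most abundant member (51.3 ± 8.74 FPKM with sesame oil and 65.6 ± 12.6 FPKM with DHEA, SD, n = 4), followed by Olig1 (36.8 ± 3.19 and 41.5 ± 3.22 FPKM). Sox10, Gpr17 and Olig2 followed at 13.2, 10.99 and 10.03 FPKM with sesame oil, and neighbours in this order overlapped among the sesame oil libraries. Pdgfra came next at 7.82 ± 0.656 FPKM with sesame oil. Cspg4, Vcan, Neu4 and Enpp6 lay together between 1.84 and 2.28 FPKM with sesame oil and could not be ranked beyond their spread. With DHEA the order was the same for the first 6 genes, and Enpp6 moved from the tenth to the seventh place, at 2.80 ± 0.372 FPKM. This place was not beyond the spread either. The DHEA libraries of Enpp6, from 2.33 FPKM in mouse 11, overlapped those of Cspg4, which reached 2.47 FPKM in mouse 7. TMM-normalized CPM per kilobase gave the same order, with 10 of 10 ranks equal in each group.

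**Figure D3:**
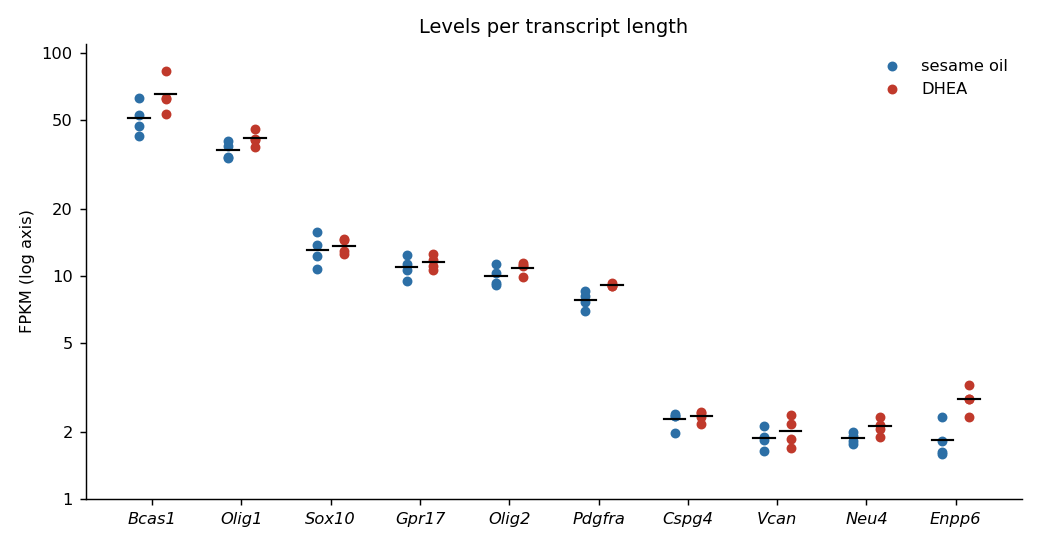
Deposited FPKM (log axis) of each gene in each library, ordered by the sesame oil mean; points are libraries (blue sesame oil, red DHEA) and short black lines are group means. Bcas1 and Olig1 stand above the rest, 4 genes lie near 2 FPKM, and Enpp6 is the one of these whose groups separate.

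The members varied together across libraries to different degrees. Over the 45 pairs of members, Pearson's r of log2(CPM + 0.5) across the 8 libraries had a median of 0.46 and was positive in 37 pairs, and 2 pairs had a Benjamini-Hochberg adjusted p under 0.05. The pooled r holds the difference between the groups, and within groups of 4 libraries r was positive in 30 of the 45 pairs with DHEA and in 23 with sesame oil, and in 15 pairs it was positive in both. Olig1 and Bcas1 had r = 0.974 (exact permutation p = 0.000298, adjusted p = 0.0134) and Spearman's rho = 0.952 (exact permutation p = 0.00114, adjusted p = 0.0257). Without mice 4 and 5, the farthest from the median of Olig1, r was 0.974, and it was 0.987 within the DHEA and 0.916 within the sesame oil libraries. Enpp6 and Bcas1 had r = 0.899 (exact permutation p = 0.00129, adjusted p = 0.029) and rho = 0.952 (exact permutation p = 0.00114, adjusted p = 0.0257). Without mice 4 and 16 r was 0.815, and within the groups it was 0.968 and 0.795. Genes measured in the same library share its depth and tissue piece. Cspg4 and Vcan took part least, and the lowest r of any pair was -0.49. Over the 10 members, mouse 4 was the highest library for 4 genes and mouse 16 the lowest for 4. In all, 9 members were highest in a DHEA library and 10 were lowest in a sesame oil library.

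**Figure D4:**
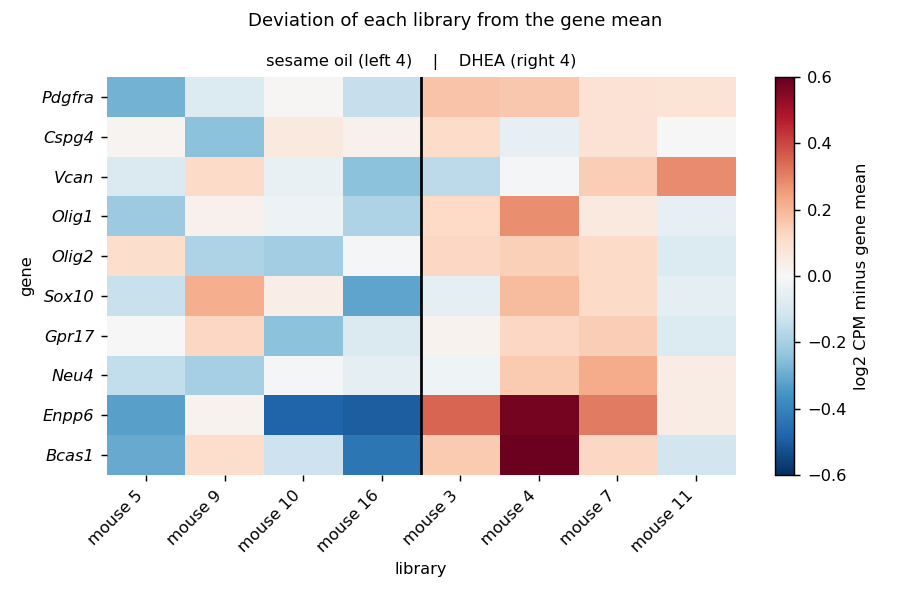
Log2 CPM of each gene (rows) in each library (columns, sesame oil left of the line, DHEA right), minus the mean of the gene over the 8 libraries; red is above and blue below that mean. Enpp6 and Bcas1 are deepest red in mouse 4 and blue in mouse 16, while Vcan is highest in mouse 11.

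Other genes of the precursor and newly formed stages moved in the same direction as the members where they passed the test. Of 16 further precursor genes, 5 were higher and 0 lower at an unadjusted p under 0.05, with a median log2 fold change of 0.13. They were Gjc3 (log2 fold change 0.29, standard error 0.08), Luzp2 (0.31, 0.09), Lhfpl3 (0.32, 0.10), Sox8 (0.19, 0.08) and Nkx2-2 (0.52, 0.23), the last a factor that promotes differentiation. The precursor genes Ptprz1 (log2 fold change 0.07), Tnr (-0.05) and Pcdh15 (-0.19) did not pass. Of 16 further genes of committed and newly formed cells, 5 were higher and 0 lower, with a median log2 fold change of 0.16. Tns3, an adhesion protein of cells about to mature, went from 84.9 ± 4.36 to 100.4 ± 4.10 CPM (SD, n = 4) without overlap, with a log2 fold change of 0.24 (standard error 0.06). It had an adjusted p of 0.245 from edgeR and 0.0421 from DESeq2. Cnksr3 (0.46, standard error 0.14), Zfp488 (0.41, 0.18), Rras2 (0.23, 0.09) and Sirt2 (0.16, 0.07) were the others, while Myrf (0.17, 0.08) and Bmp4 (0.06, 0.23) did not pass.

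Ligands, receptors and inhibitors that act on the lineage formed a list of 22 genes, of which 7 were higher and 0 lower at an unadjusted p under 0.05 in edgeR's test, with a median log2 fold change of 0.10. The list includes 1 gene, Cxcr2, at 3 counts or fewer in all libraries. Pdgfc and Pdgfa, growth factors of the platelet-derived family, went from 5.92 ± 0.453 to 8.09 ± 0.716 CPM and from 21.4 ± 0.797 to 24.1 ± 0.691 CPM (SD, n = 4), both without overlap. Pdgfa, the ligand of Pdgfra, had a log2 fold change of 0.17 (standard error 0.08, adjusted p = 0.531 from edgeR) and an unadjusted p of 0.0481. Fgf2, a mitogen for precursors, had a log2 fold change of 0.39 (standard error 0.12, adjusted p = 0.293 from edgeR and 0.0485 from DESeq2). The inhibitors of differentiation Id2 and Id4, which astrocytes also express, had log2 fold changes of 0.35 (standard error 0.09) and 0.33 (0.07). Id4 separated the groups without overlap, with an adjusted p of 0.23 from edgeR and 0.0323 from DESeq2. For Id2 these adjusted values were 0.241 and 0.0549, and its groups overlapped. Gpr37 and Bmpr1a were the other 2 that passed. Notch1 (log2 fold change -0.06), Lingo1 (-0.07), Jag1 (0.11) and the thyroid hormone receptor Thra (-0.03) did not pass. Of 8 cell cycle genes 0 passed, with Pcna (log2 fold change 0.16, standard error 0.09) and Ccnb1 (0.85, 0.55) nearest to the threshold.

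The myelin and mature oligodendrocyte genes are the stage that follows. Of 18 such genes 15 were higher and 0 lower at an unadjusted p under 0.05 in edgeR's test, with a median log2 fold change of 0.36, led by Tspan2 (0.59, standard error 0.09), Mal (0.55, 0.09) and Cldn11 (0.48, 0.09) and with Mbp (0.39), Cnp (0.42), Mobp (0.38), Mog (0.36), Mag (0.29), Ermn (0.29), Ugt8a (0.32), Opalin (0.37), Aspa (0.40), Car2 (0.27) and Trf (0.24) among them. Their summed level was 8449 ± 933 CPM with DHEA and 6407 ± 887 CPM with sesame oil (SD, n = 4). It was highest in mouse 4 with DHEA (9819 CPM) and in mouse 9 with sesame oil (7549 CPM), below the lowest DHEA library (7803 CPM). Each member was set against Mbp, a major structural protein of myelin, as a log2 ratio within the library, a choice made after the values were seen. Relative to Mbp, 9 of 10 members had a lower mean with DHEA and Enpp6 a higher one, but 0 of the 10 ratios separated the groups. The mean log2 ratio differed by 0.25 for Enpp6 (two-sided exact permutation p = 0.114, before any adjustment for the 10 ratios) and by -0.30 for Sox10 (p = 0.0571 in the same exact test). For Bcas1 it differed by -0.02 (two-sided exact permutation p = 0.971).

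Several other properties of the libraries moved with the groups. Of 10 astrocyte genes 6 were higher at an unadjusted p under 0.05 in edgeR's test (summed level 6624 ± 491 against 5867 ± 352 CPM, SD, n = 4, Slc1a2 the most abundant), namely Gfap, Sox9, Slc1a2, Fgfr3, Gja1 and Slc1a3, with log2 fold changes from 0.15 (Slc1a3) to 0.26 (Gfap). Of 10 microglia genes 5 were higher, among them Itgam, C1qa, P2ry12 and C1qb, with log2 fold changes of up to 0.37 (P2ry12), and their summed level was 445 ± 57.6 against 382 ± 26.6 CPM (SD, n = 4). Of 10 endothelial genes Slco1a4 (log2 fold change 0.38), Ly6c1 (0.43) and Pecam1 (0.30) were higher, of 10 hippocampal genes Bok (0.24), and of 10 neuronal genes 0, while the neuronal nuclear protein gene Rbfox3 was lower, with a log2 fold change of -0.16 (standard error 0.05). In none of these lists was a gene at 3 counts or fewer in all libraries. The summed level of 9 thalamic genes was 167 ± 20.4 against 145 ± 22.9 CPM (two-sided exact permutation p = 0.2, n = 4 each), with 0 of 9 past the threshold and Zic1 (log2 fold change 0.44, standard error 0.24) and Slc17a6 (0.20, 0.13) nearest to it. Of 8 choroid plexus genes 0 passed, with Otx2 (0.44, 0.41) and Prlr (0.50, 0.48) nearest. Choroid plexus genes, mainly Ttr, ranged from 101 CPM in mouse 4 to 4569 CPM in mouse 3 with DHEA and from 526 CPM in mouse 9 to 3179 CPM in mouse 5 with sesame oil, so that mice 4 and 9, the libraries with the most myelin counts of their groups, had the fewest of these. With mice 4 and 9 left out, Enpp6, Pdgfra, Bcas1 and Olig1 still passed the unadjusted threshold of edgeR, and with mice 3 and 4 left out Enpp6, Pdgfra and Vcan did. The total count, the share of mitochondrial counts (7.29% to 9.34% against 6.37% to 7.23%) and the Spearman correlation of each library's deviations with GC content (-0.152 to -0.00966 against 0.0684 to 0.178) separated the groups without overlap. After removal of the GC trend 5 members, with Olig2 the fifth, were higher at an unadjusted p under 0.05 (3.93% of all genes), and the log2 fold change was 0.58 for Enpp6 and 0.23 for Pdgfra. The part of the mitochondrial share, of total counts and of the other cell types in these results was not tested.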

How the data were processed

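Low-quality reads were discarded by the authors before alignment with HISAT2 and counting per gene with HTSeq; the submitters' processing notes also list fastp and the build GRCm39, with no versions given in the sources used here. They deposited raw counts without normalization and FPKM values, which equal the counts divided by the library total and by 1 length per gene (within 0.1% for 25234 of 25234 genes with values above 0 in at least 2 libraries). Testing used edgeR 4.0.16 (R 4.3.3) on the 27612 genes with at least 1 count (TMM, quasi-likelihood test, prior count 0.125, Benjamini-Hochberg adjustment), on all 8 libraries without covariates. The standard error was the log2 fold change divided by the square root of F. Single values were compared by two-sided exact permutation over 70 allocations with scipy 1.17.1. With total counts of 31483772 or more, each member had between 252 and 11101 counts per library. Replicate libraries differed beyond sampling noise (chi-square per gene of at least 7.82). The DHEA libraries differed more among themselves, with pairs from 13.9 to 57.3, against 7.82 to 14.7 for pairs of sesame oil libraries.

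DESeq2 1.42.0, limma-trend (limma 3.58.1) on log2(FPKM + 1) and log2(FPKM + 0.1), RLE and total-count scaling, at least 10 counts, filterByExpr, robust moderation and leaving out each library were the alternatives. Removal of the GC trend (lowess, span 0.3, GENCODE M21 transcripts, 15594 of the 16813 genes that average 10 counts or more) and leaving out pairs of mice were added after seeing the data. On simulated counts of 27612 genes for this comparison, edgeR recovered 95.5% of 200 genes changed 2-fold, DESeq2 97% and limma 83.5%, and they called 2, 21 and 3 unchanged genes. The members and lists were chosen with earlier results of these data known. All members are named with every library's value, and of each other list the genes at an unadjusted p under 0.05 or, where none passed, the 2 with the smallest p. A few listed genes enter the counts and sums and are not reported here by name. Genes shown beside these, as not having passed, were chosen after their values were seen. Promoter windows come from RefSeq (GRCm38.p6).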

Additional observations from a re-analysis of the deposited data

Results flagged for a closer look

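In 2 of the 48 groups of 4 libraries examined (members and summed lists, each group separately), a single library stood apart, its distance from its closest neighbour, as a share of that group's range, being above Dixon's 95% critical value. Chance gives about 2.4 in 48. For Cspg4 with sesame oil the ratio was 0.86, with mouse 9 at 15.7 CPM and the others at 18.8 to 19.3 CPM. For Olig2 with DHEA it was 0.869, with mouse 11 at 26.4 CPM and the others at 30.3 to 30.9 CPM. No explanation was tested.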

How the results depend on the processing

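The 4 members with an unadjusted p under 0.05 were 3 to 5 when each library was left out, and 0 were lower in any fit. Over the 9 alternatives that kept all libraries, the log2 fold change was 0.42 to 0.64 for Enpp6, 0.20 to 0.25 for Pdgfra, 0.35 to 0.39 for Bcas1 and 0.17 to 0.26 for Olig1. Of the others it was 0.03 to 0.12 for Cspg4, 0.06 to 0.14 for Sox10, 0.07 to 0.13 for Vcan, 0.12 to 0.20 for Neu4, 0.11 to 0.19 for Olig2 and 0.07 to 0.12 for Gpr17. Bcas1 had an unadjusted p of 0.0799 with robust moderation and 0.0553 with limma-trend on log2(FPKM + 1). Members past an adjusted p of 0.05 numbered 0 by edgeR and with each library left out (0 to 0), and 1 with DESeq2, Enpp6, whose adjusted p ran from 0.0132 to 0.39 over these alternatives. With each library left out Sox10 ran from -0.0033 to 0.18, the former without mouse 16 of the sesame oil group. Genes with an adjusted p under 0.05 numbered 0 with edgeR, 153 with DESeq2, 4 with robust moderation, 1 without mice 3 and 4, 12 without mice 4 and 9, and 0 to 93 with each library left out, 93 of them without mouse 7. The 2571 genes with an unadjusted p under 0.05 became 1786 to 3667. Genes past the study's thresholds numbered 442 with edgeR, 164 with DESeq2, 284 with at least 10 counts, 361 to 512 when libraries were omitted singly, 62 with filterByExpr, and 48 by limma-trend with a pseudocount of 0.1 FPKM against 1 with a pseudocount of 1 FPKM. Filtering leaves fewer genes to test, and pseudocounts reduce the fold change of weakly expressed ones. Otherwise the cause was not tested. No paired analysis was possible because the labels name no pairs and the littermate controls of the study's methods are not assigned to libraries.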
